A study of Arabidopsis thaliana with 12 samples.

Results

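The PRE genes (PACLOBUTRAZOL RESISTANCE, also called BANQUO) are a family of 6 small helix-loop-helix genes of Arabidopsis, PRE1 to PRE6. They were taken by their locus identifiers from the 27371 genes of the deposited table, and all 6 were listed. The family was picked because PRE1 (AT5G39860) had been among the genes with lower FPKM in mock seedlings labelled Atg3bp1-1. The difference between genotypes in mock is therefore a description here, with no test. RNA-seq was performed on whole seedlings of ecotype Columbia-0, 14 d old, in 4 groups of 3 libraries each, namely WT and Atg3bp1-1 in mock and both genotypes again after treatment (WT hrcC, Atg3bp1-1 hrcC). For the treated groups the seedlings had received Pst DC3000 hrcC-, a Pseudomonas syringae strain that lacks the type III secretion system, for 24 h, and what the mock seedlings of this experiment received is not stated in the sources used here. WT carried no mutation, and Atg3bp1-1 is a single T-DNA insertion line in AtG3BP1 (AT5G48650), an allele name taken from the paper, since the labels name only an Atg3bp1 mutant. The values are FPKM, fragments scaled to transcript length and to library size, so the number of reads behind each is unknown.

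PRE proteins are atypical helix-loop-helix factors that lack the basic region and do not bind DNA. They act by pairing with other helix-loop-helix proteins. They bind growth repressors of this class, such as IBH1 and PAR1, and thereby free DNA-binding factors such as HBI1 that promote cell elongation. Brassinosteroid, gibberellin, auxin and light signals are known to act on growth through this module, and HBI1 is also known as a negative regulator of immune responses.

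Each PRE gene had 1 transcript with 2 exons in the TAIR10.1 annotation, and none overlapped another annotated gene. PRE1 lies on chromosome 5 from 15957368 to 15958559 and PRE2 (AT5G15160) on chromosome 5 from 4921243 to 4922812. PRE3 (AT1G74500), also named TMO7 or ATBS1, lies on chromosome 1 from 27997919 to 27998821. PRE4 (AT3G47710) lies on chromosome 3 from 17590544 to 17591670 and PRE5 (AT3G28857) on chromosome 3 from 10855623 to 10856787. PRE6 (AT1G26945), also named KIDARI, lies on chromosome 1 from 9351160 to 9352833. The coding sequences had 279 to 285 bases, and 119 of the 294 columns of their alignment held the same base in all 6 genes.

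The coding sequences of PRE1, of its closest relative PRE5 and of PRE3 are shown to let the reader see how near the members are to each other. They come from the RefSeq TAIR10.1 assembly, and capitals mark the bases that all 6 members share.
PRE1: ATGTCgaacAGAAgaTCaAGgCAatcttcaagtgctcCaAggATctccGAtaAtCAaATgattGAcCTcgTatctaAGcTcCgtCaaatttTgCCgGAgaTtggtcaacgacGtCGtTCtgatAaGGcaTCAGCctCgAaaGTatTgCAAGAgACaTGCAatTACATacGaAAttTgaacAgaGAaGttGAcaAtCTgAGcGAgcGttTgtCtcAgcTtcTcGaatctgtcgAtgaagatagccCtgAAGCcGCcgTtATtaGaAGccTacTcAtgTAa
PRE5: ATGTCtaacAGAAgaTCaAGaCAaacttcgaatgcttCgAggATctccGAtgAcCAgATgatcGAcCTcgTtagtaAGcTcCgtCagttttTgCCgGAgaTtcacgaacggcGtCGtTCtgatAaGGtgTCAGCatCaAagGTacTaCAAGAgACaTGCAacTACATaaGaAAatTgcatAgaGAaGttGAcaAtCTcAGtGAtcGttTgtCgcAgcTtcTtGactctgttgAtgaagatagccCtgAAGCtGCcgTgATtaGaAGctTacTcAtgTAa
PRE3: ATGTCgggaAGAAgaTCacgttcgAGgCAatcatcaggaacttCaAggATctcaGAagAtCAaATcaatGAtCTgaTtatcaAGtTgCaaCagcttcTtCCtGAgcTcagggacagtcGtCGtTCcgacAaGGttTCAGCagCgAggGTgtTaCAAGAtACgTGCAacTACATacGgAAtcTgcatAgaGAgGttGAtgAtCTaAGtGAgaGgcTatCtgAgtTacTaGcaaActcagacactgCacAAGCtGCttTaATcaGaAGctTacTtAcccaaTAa

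PRE1 and PRE5 had 84.6% identical bases over their coding sequences, and the other pairs of members between 62.5% and 70.5%. The longest run of bases that 2 transcripts of the family had in common was 22 bases, between PRE2 and PRE6, and the run shared by PRE1 and PRE5 was gatgaagatagccctgaagc, with 20 bases. These runs are shorter than the reads, which were paired.

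The bases before the annotated start are shown for PRE1, the member by which the family was picked, and for PRE3 and PRE4, which had an adjusted p below 0.05 in the response to Pst hrcC-. The windows are on chromosome 5 from 15957068 to 15957367 (plus strand), on chromosome 1 from 27998822 to 27999121 (minus strand) and on chromosome 3 from 17590244 to 17590543 (plus strand) of TAIR10.1, each of 300 bases and written along the gene. Capitals mark the CACATG of the PBE-box, a sequence known to be bound by PIF factors.
PRE1: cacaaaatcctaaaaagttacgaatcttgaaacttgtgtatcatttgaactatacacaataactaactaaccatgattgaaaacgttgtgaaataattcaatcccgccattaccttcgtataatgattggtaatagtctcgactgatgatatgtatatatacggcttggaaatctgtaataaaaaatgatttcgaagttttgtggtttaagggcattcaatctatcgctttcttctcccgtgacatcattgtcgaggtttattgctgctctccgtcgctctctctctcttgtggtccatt
PRE3: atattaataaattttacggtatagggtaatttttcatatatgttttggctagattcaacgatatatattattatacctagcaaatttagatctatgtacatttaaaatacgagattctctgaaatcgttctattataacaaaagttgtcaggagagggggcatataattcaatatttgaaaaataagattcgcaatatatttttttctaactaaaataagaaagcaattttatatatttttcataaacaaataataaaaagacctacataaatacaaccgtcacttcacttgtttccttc
PRE4: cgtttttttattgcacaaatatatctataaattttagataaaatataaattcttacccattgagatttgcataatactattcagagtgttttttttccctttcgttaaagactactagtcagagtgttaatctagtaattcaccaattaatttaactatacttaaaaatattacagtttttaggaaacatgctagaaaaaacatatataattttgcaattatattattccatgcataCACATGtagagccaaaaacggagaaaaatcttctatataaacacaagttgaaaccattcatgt

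Motifs of 6 bases were searched on both strands of this window in all 6 members. The G-box CACGTG was present in 1 member, PRE2, and in 7.09% of the windows of 27443 protein-coding genes. The PBE-box CACATG was present in PRE4 and PRE6 and in 13.1% of all windows. The brassinosteroid response element, searched as CGTGTG or CGTGCG, was present in none of the members and in 7.64% of all windows. The auxin response element TGTCTC was present in none of them and in 13.0% of all windows. The W-box, searched as TTGACC or TTGACT, was present in none of them and in 32.3%.

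The libraries held facts that bear on every comparison. AtG3BP1 itself was listed at 0.0179 to 0.426 FPKM in the 6 libraries labelled WT and at 11.4 to 18.4 FPKM in the 6 labelled Atg3bp1-1. This goes against the label of a loss-of-function line as far as the level of the whole gene can show it, and every direction between genotypes below rests on the deposited labels. The locus AT2G01021 took 4.03% to 8.51% of the summed FPKM under the label WT and 5.73% to 31.6% under the label Atg3bp1-1. The libraries were rescaled to a common upper quartile with factors of 0.866 to 1.20, and the 3 highest factors, 1.11 to 1.20, belonged to replicates 2 and 3 of WT mock and to replicate 1 of WT hrcC. Leaf mesophyll markers summed to at least 16385 FPKM in each library. All 4 root hair markers and 3 of the 4 root endodermis markers had a mean of at least 1 FPKM, as whole seedlings should have. The remaining endodermis marker, ESB1, stayed at or below 0.143 FPKM. The 3 flower markers had a mean below 1 FPKM each, and so did the 3 seed markers. In whole seedlings, fewer cells of a type and less RNA per cell cannot be told apart.

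The whole family had a low level in these seedlings. The FPKM of its members summed to 16.9 to 25.2 in WT mock, 12.9 to 15.0 in Atg3bp1-1 mock, 9.26 to 12.6 in WT hrcC and 6.20 to 11.3 in Atg3bp1-1 hrcC. The 6 treated libraries were all below the 6 mock libraries, by a narrow gap, as was found for 1.26% of all tested genes taken singly. The sums include PRE1, whose mock values chose it, and without PRE1 they were 13.4 to 19.0 in WT mock and 11.7 to 14.2 in Atg3bp1-1 mock, which overlap, and 7.59 to 10.7 and 5.57 to 10.7 after treatment. PRE6 and PRE3 had the highest levels, with means over the 12 libraries of 4.83 and 4.73 FPKM, followed by PRE1 with 2.09 FPKM and PRE2 with 1.55 FPKM. PRE4 and PRE5 had means of 0.414 and 0.285 FPKM. On average, PRE3 made up 36.0% of the sum in WT mock and 20.7% in WT hrcC, and PRE6 made up 29.4% and 46.5%. In the libraries labelled Atg3bp1-1, PRE3 made up 41.7% in mock and 34.2% after Pst hrcC-. PRE1 made up 21.3% of the sum in WT mock and 6.94% in Atg3bp1-1 mock.

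**Figure D1:**
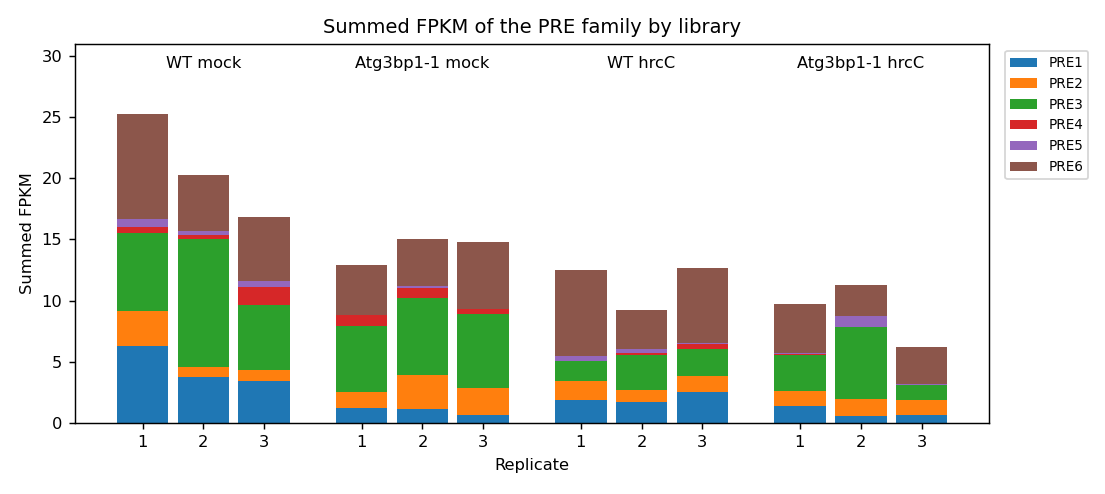
Summed FPKM of the 6 PRE genes in each of the 12 libraries, with 1 bar per replicate, grouped by genotype and treatment. Colours divide each bar among the members. The treated bars reach at most 12.6 and the mock bars at least 12.9.

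A gene was tested when its mean over all libraries was at least 1 FPKM, which 4 of the 6 members passed, PRE1, PRE2, PRE3 and PRE6. PRE1 passed through its level under the label WT, since its mean was below 1 FPKM in both groups labelled Atg3bp1-1. The values were tested by limma as log2 of FPKM plus 1, with p-values adjusted by the Benjamini-Hochberg method over all 17158 tested genes. The word called is used for genes whose adjusted p was 0.05 or lower and whose fitted change reached 2-fold. PRE4 and PRE5 did not pass the filter, and their values come from a fit to all 23870 genes that were above 0 in at least 1 library. Fold changes are on the log2(FPKM + 1) scale, where a gene of such low FPKM shows less change than its plain ratio.

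**Figure D2:**
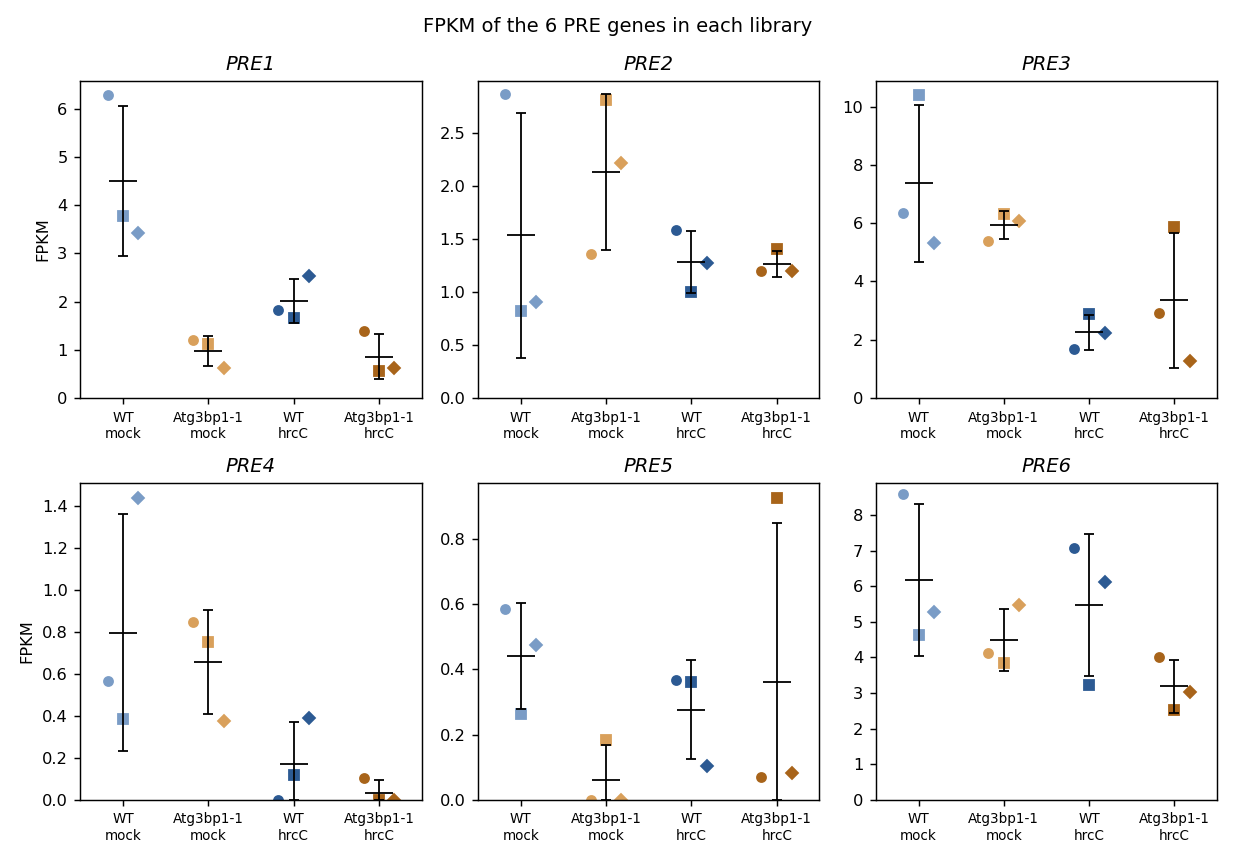
FPKM of each PRE gene, as deposited, in the 4 groups, with circles for replicate 1, squares for replicate 2 and diamonds for replicate 3. Horizontal bars mark the mean and vertical bars the SD of 3 libraries, ended at 0 where they would pass below it. For PRE1 the WT mock libraries stand above all others, and for PRE3 all mock libraries lie above 5 FPKM while 1 treated library does.

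The response to Pst hrcC- was first compared as the average of both genotypes. This average is a contrast at right angles to the genotype difference in mock by which PRE1 was picked. PRE3 fell after treatment and was the only 1 of the 4 tested members that was called, against 0.705% of all tested genes called lower in this comparison. PRE3 is known as a target of the auxin response factor MONOPTEROS in the embryo, where its protein moves toward the future root, and as an activation-tagged suppressor of a weak brassinosteroid receptor mutant. It had 6.35, 10.4 and 5.33 FPKM in the WT mock libraries, and 5.40, 6.32 and 6.09 FPKM in Atg3bp1-1 mock. After Pst hrcC- it had 1.68, 2.89 and 2.22 FPKM in WT and 2.93, 5.86 and 1.27 FPKM in Atg3bp1-1. A single treated library, Atg3bp1-1 hrcC replicate 2, reached the range of the mock libraries, and the other 5 treated libraries lay below it. The mean over both genotypes was 6.65 ± 1.89 FPKM in mock and 2.81 ± 1.63 FPKM after treatment (SD, n = 6 each). The log2 fold change of PRE3 was -1.05 (SE 0.24, 95% interval -1.58 to -0.53, limma adjusted p = 0.0156). Its adjusted p stayed at or below 0.0424 in all 22 alternative settings, but the change was under 2-fold, and so not called, without WT mock replicate 2 (-0.95), WT hrcC replicate 1 (-0.96) or Atg3bp1-1 hrcC replicate 3 (-0.87).

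Within each genotype alone 0 of the 4 tested members were called, PRE3 included, against 0.321% called lower and 2.87% called higher of all tested genes in WT and 0.554% and 2.57% in Atg3bp1-1. Its log2 fold change was -1.30 in WT (SE 0.34, 95% interval -2.04 to -0.56, limma adjusted p = 0.0540) and -0.81 in Atg3bp1-1 (SE 0.34, 95% interval -1.55 to -0.07, limma adjusted p = 0.276). In WT the 3 treated libraries lay below the 3 mock libraries, as for 8.42% of all tested genes, and for 8.45% they lay above. In WT, the adjusted p of PRE3 passed the threshold in 7 of 23 alternatives, among them the replicate number as a block (0.0298) and a term for the 3 libraries with high factors (0.0284). The difference between the 2 responses was 0.50 (SE 0.48, 95% interval -0.55 to 1.54, limma adjusted p = 0.991), and its interval includes both 0 and a response weaker by more than 2-fold in Atg3bp1-1.

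PRE4 was the other member whose adjusted p passed the threshold in this response. It is also known as BANQUO3, known from mutants with pale-green sepals and carpels. PRE4 stood at 0.565, 0.383 and 1.44 FPKM in the WT mock libraries and at 0.844, 0.749 and 0.376 FPKM in Atg3bp1-1 mock. After treatment it was listed at 0, 0.120 and 0.388 FPKM in WT and at 0.103, 0 and 0 FPKM in Atg3bp1-1. The treated libraries were the lower ones in both genotypes, and WT hrcC replicate 3 alone reached into the mock range. The log2 fold change averaged over genotypes was -0.62 (SE 0.13, 95% interval -0.90 to -0.33, limma adjusted p = 0.0172), which is under 2-fold on this scale. Its mock and treated ranges did not overlap in Atg3bp1-1, as for 17.1% of tested genes in this direction and 9.98% in the other. In the same fit, 2.42% of all genes passed an adjusted p of 0.05 with a negative change of any size. With a pseudocount of 0.1 in place of 1 the change of PRE4 became -2.16 (limma adjusted p = 0.0103) and was called. An FPKM of 0 can be a failed estimate, and values of this size rest on few fragments.

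The other 4 members were not called in the average response. For PRE1 the change on the log2 scale was -0.46 (SE 0.19, 95% interval -0.87 to -0.04, limma adjusted p = 0.169). PRE6, whose activation is known to lengthen the hypocotyl in light, had -0.27 (SE 0.20, 95% interval -0.71 to 0.17, adjusted p = 0.491 by limma). PRE2 had -0.26 (95% interval -0.72 to 0.20) and PRE5 had 0.07 (95% interval -0.26 to 0.39). All 4 tested members had a negative change, but the intervals of PRE2 and PRE6 included 0, and PRE1 passed the filter through its level under the label WT. The shared sign is a description of these genes and no test of the family.

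**Figure D3:**
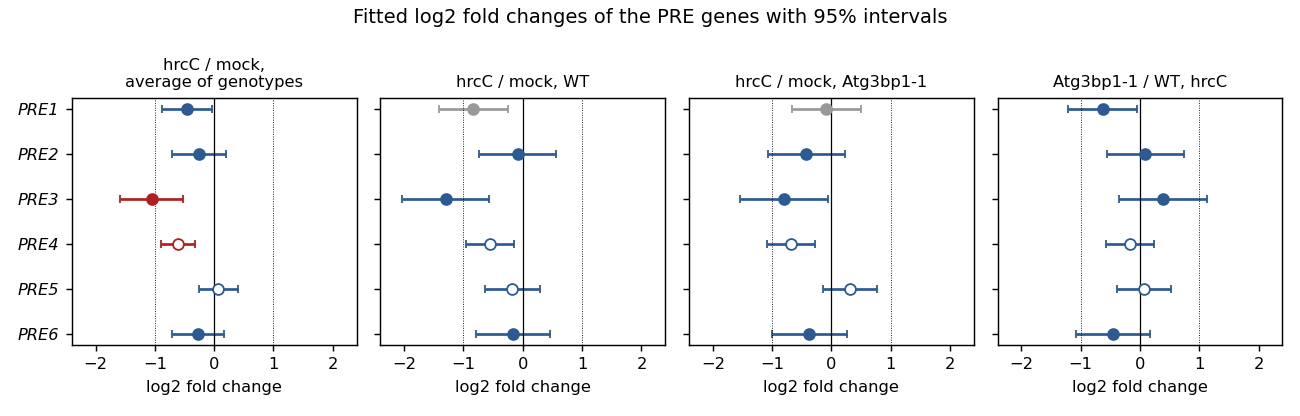
Fitted log2 fold changes of the PRE genes (points) with 95% intervals (bars) for 4 comparisons, on the log2(FPKM + 1) scale. Red marks an adjusted p that passed the threshold of 0.05, open points the members below the filter, grey the values of PRE1 given as a description, and dotted lines a 2-fold change. Red points appear only for PRE3 (-1.05) and PRE4 (-0.62) in the response averaged over genotypes.

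PRE1 showed the pattern for which the family was picked. PRE1 is a gibberellin-inducible member whose overproduction is known to give plants that grow in the presence of paclobutrazol, an inhibitor of gibberellin synthesis. PRE1 stood at 6.28, 3.78 and 3.43 FPKM in the WT mock libraries and at 1.20, 1.11 and 0.613 FPKM in Atg3bp1-1 mock. After Pst hrcC- it had 1.83, 1.67 and 2.54 FPKM in WT and 1.40, 0.556 and 0.630 FPKM in Atg3bp1-1. The 3 libraries of WT mock were the highest of all 12, the 3 of WT hrcC came next, and the 6 libraries labelled Atg3bp1-1 were the lowest. The ranges of WT mock and WT hrcC did not overlap, as for 8.42% of all tested genes in this direction, while both groups labelled Atg3bp1-1 overlapped. In mock the fitted log2 difference between the labels was -1.38 (SE 0.27). In this comparison 0.0583% of all tested genes were called lower, and PRE1 is 1 of them by the way it was picked. Ranges that did not overlap, with the label Atg3bp1-1 lower, were found for 17.1% of all tested genes in mock. PRE5 also had the 3 WT mock libraries above the 3 of Atg3bp1-1 mock. The response to Pst hrcC- was -0.83 in WT (SE 0.27) and -0.08 in Atg3bp1-1 (SE 0.27), both of them against mock libraries that the choice of PRE1 had used.

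The comparison of the genotypes after Pst hrcC- holds no mock library. The 3 libraries of WT hrcC had 2.01 ± 0.464 FPKM of PRE1 and the 3 of Atg3bp1-1 hrcC 0.861 ± 0.466 FPKM (SD, n = 3 each). Their ranges did not overlap, as was the case in this direction for 10.6% of all tested genes, and in the other for 2.37%. The log2 fold change of PRE1 was -0.63 (SE 0.27, 95% interval -1.22 to -0.05) and did not pass the test over all genes (limma adjusted p = 0.904), where 0.00583% of the tested genes were called lower. The sign was negative in all 23 alternatives. These reuse the same libraries, whose ranges do not overlap, so the steady sign adds no support. None of the other 5 members was called, and their log2 fold changes ran from -0.46 for PRE6 to 0.38 for PRE3.

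Markers of dividing cells had lower sums under the label Atg3bp1-1 in both treatments. The FPKM of 4 such markers (CYCB1;1, CYCB1;2, CDKB2;1 and KNOLLE) summed to 31.8 to 34.8 in WT mock and 17.0 to 27.4 in Atg3bp1-1 mock. After Pst hrcC- they summed to 25.5 to 34.8 in WT and 15.8 to 19.4 in Atg3bp1-1. Each of the 4 had a negative fitted difference in both comparisons of genotypes, and 0 of 4 were called in either. KNOLLE alone held a mean of 22.6 of the 33.3 FPKM in WT mock. CDKB2;1 overlapped in both comparisons and CYCB1;2 in mock. Single genes lay lower without overlap for 17.1% of tested genes in mock and 10.6% after Pst hrcC-. In mock, guard cell sums were also lower without overlap, at 12.4 to 13.6 in WT and 9.37 to 12.2 in Atg3bp1-1. MYB60 alone held a mean of 9.65 of the 12.9 FPKM in WT mock, and each guard cell marker taken singly overlapped. In mock 2 of them had a negative difference and 0 were called, while HT1 had means of 1.29 FPKM in WT and 1.60 FPKM in Atg3bp1-1. Leaf mesophyll sums overlapped there, and all 4 root hair markers had a positive difference. The part of these markers in the values of PRE1 was not tested. For the response to treatment, the sums of 4 root endodermis markers ran from 10.3 to 34.5 in mock and from 7.75 to 16.6 after Pst hrcC-, with 3 of 3 tested markers negative and 0 called. All 4 root hair markers and all 4 markers of dividing cells were negative as well in the average response, with 0 called. Of the 5 leaf mesophyll markers, 2 were negative and 1, RBCS3B, was called lower (-1.04, limma adjusted p = 0.0155), and their sums ran from 21302 to 34700 FPKM in mock and from 16385 to 23566 FPKM after treatment. The sums of 3 guard cell markers ran from 9.37 to 13.6 FPKM and from 5.13 to 11.5 FPKM, with 2 negative and 0 called. Their part in the values of PRE3 and PRE4 was not tested either.

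PRE6 had 8.60, 4.64 and 5.28 FPKM in the WT mock libraries, 4.12, 3.85 and 5.47 FPKM in Atg3bp1-1 mock, 7.06, 3.23 and 6.11 FPKM in WT hrcC and 4.005, 2.53 and 3.03 FPKM in Atg3bp1-1 hrcC. Its group means fell in the order WT mock, WT hrcC, Atg3bp1-1 mock and Atg3bp1-1 hrcC, and every neighbouring pair in this order overlapped. PRE2 had 2.86 FPKM in WT mock replicate 1 and 0.824 and 0.909 FPKM in the other 2 libraries of that group. Its other groups lay between 0.999 and 2.81 FPKM, and all 4 groups overlapped with their neighbours in the order of means. PRE5 was listed at 0.585, 0.264 and 0.476 FPKM in the WT mock libraries and at 0, 0.183 and 0 FPKM in Atg3bp1-1 mock. It was listed at 0.367, 0.361 and 0.102 FPKM in WT hrcC and at 0.0702, 0.927 and 0.0831 FPKM in Atg3bp1-1 hrcC, where replicate 2 alone held the highest value of all libraries. The closest relative of PRE1 by sequence thus had values near the lower end of the table, and its treated libraries labelled Atg3bp1-1 did not stand below those labelled WT.

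Pairs of members differed in how alike their courses over the libraries were, and at these low levels a common course can be hidden. Over the 12 libraries, the correlation of log2 values between pairs of members lay between -0.13 (PRE4 and PRE5) and 0.65 (PRE1 and PRE6). These libraries share groups and scaling, so the values are a description. With the group means removed, pairs ran from -0.33 (PRE3 and PRE4) to 0.68 (PRE2 and PRE6), and PRE1 and PRE6 had 0.61. WT mock replicate 1 held the highest value of all 12 libraries for PRE1 (6.28 FPKM), PRE2 (2.86 FPKM) and PRE6 (8.60 FPKM). How far the correlations of these members rest on that library was not tested. The genes with the course most like that of PRE1 among 17157 others were AT1G56190 (r = 0.94), PTAC7 (AT5G24314, r = 0.93) and AT5G63550 (r = 0.93). For PRE3 they were LOS4 (AT3G53110, r = 0.94), AT5G44490 (r = 0.91) and AT5G23950 (r = 0.89). For PRE6 they were AT2G29310 (r = 0.92), PDV1 (AT5G53280, r = 0.90) and the auxin-inducible SAUR15 (AT4G38850, r = 0.89). For PRE2 they were AT1G24610 (r = 0.91), AT5G63180 (r = 0.88) and ASL5 (AT2G30130, r = 0.82).

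The partners of the PRE proteins and the hormone pathways around them were followed as lists with 68 genes in all, 59 of which were tested. The lists were chosen with earlier results of these data known, so their counts beside those of all genes are a description. In the average response to Pst hrcC-, 1 of the 59 was called higher and 4 lower, against 3.28% and 0.705% of all tested genes. All 4 lower genes belonged to the 10 tested cell elongation outputs. Their median log2 fold change was -0.87 and 10 of 10 were negative, where the median of all tested genes was -0.07. They are the expansins EXPA1, EXPA8 and EXPA11, which loosen cell walls, and XTH19, a xyloglucan endotransglucosylase/hydrolase that remodels them.

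EXPA11 (AT1G20190) had 11.5, 9.35 and 18.2 FPKM in the WT mock libraries and 19.9, 18.3 and 17.1 FPKM in Atg3bp1-1 mock. After Pst hrcC- it had 3.90, 4.61 and 3.12 FPKM in WT and 2.38, 3.995 and 3.51 FPKM in Atg3bp1-1. All treated libraries lay below all mock libraries, which held for 1.26% of all tested genes. Its log2 fold change in the average response was -1.82 (SE 0.17, limma adjusted p = 1.60e-05). EXPA1 (AT1G69530) ran from 78.8 to 143 FPKM in mock and from 31.1 to 57.7 FPKM after treatment, and the average change was -1.40 (SE 0.17, limma adjusted p = 0.000220). EXPA1 and EXPA11 were also called lower within WT alone and within Atg3bp1-1 alone, though EXPA1 lost its call in WT when replicate 3 of WT mock or of WT hrcC was left out or when these 2 groups were fitted alone.

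EXPA8 (AT2G40610) fell by 1.39 on the log2 scale (SE 0.30, limma adjusted p = 0.0124), and its libraries ran from 8.48 to 35.6 FPKM in mock and from 3.68 to 7.91 FPKM after treatment. XTH19 (AT4G30290) fell by 1.30 (SE 0.25, limma adjusted p = 0.00596), and its libraries ran from 6.91 to 21.0 FPKM in mock and from 2.76 to 6.73 FPKM after treatment. The treated libraries of both genes did not overlap with the mock libraries. EXPA5 fell by 0.86 (limma adjusted p = 0.0136), which is under 2-fold. A lower adjusted p than the threshold, whatever the size of the change, was found for 3.58% of tested genes as lower and for 5.82% as higher. The output with the highest level, XTH22 (AT5G57560), had a mean of 96.2 FPKM and a log2 fold change of -0.30 (adjusted p = 0.644 by limma). SAUR15, a gene induced by auxin, had -0.52 (limma adjusted p = 0.228).

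**Figure D4:**
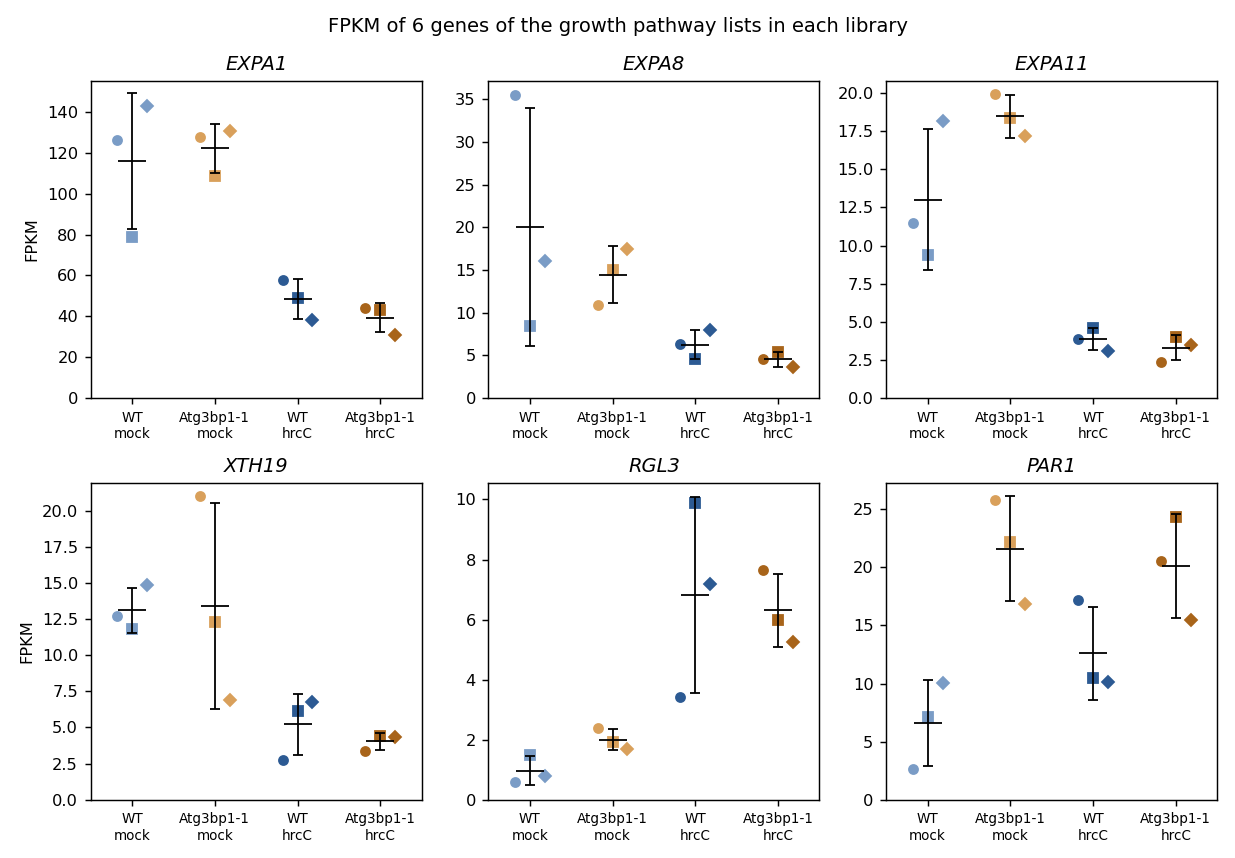
FPKM, as deposited, of 4 elongation genes called lower after Pst hrcC-, of RGL3 and of PAR1 in the 4 groups, drawn as in the plot of the PRE genes (circles, squares and diamonds for replicates 1, 2 and 3, bars for mean and SD of 3 libraries). EXPA1, EXPA8, EXPA11 and XTH19 have all treated libraries below all mock libraries, and RGL3 has them above.

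The gene called higher in these lists was RGL3 (AT5G17490), which encodes a DELLA protein, a repressor of gibberellin responses that is also known for a part in jasmonate-mediated defence. It had 0.604, 1.505 and 0.783 FPKM in the WT mock libraries, 2.395, 1.91 and 1.70 FPKM in Atg3bp1-1 mock, 3.41, 9.89 and 7.18 FPKM in WT hrcC and 7.66, 6.001 and 5.27 FPKM in Atg3bp1-1 hrcC. All treated libraries lay above all mock libraries, as for 3.41% of all tested genes. Its log2 fold change was 1.62 in the average response (SE 0.23, limma adjusted p = 0.000553). The most abundant DELLA gene, RGA (AT2G01570), had a mean of 24.2 FPKM and a log2 fold change of -0.05 (SE 0.17). The gibberellin receptor gene GID1A rose by 0.47 (limma adjusted p = 0.0282), under 2-fold.

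The helix-loop-helix partners showed few calls. Of the 9 antagonists of growth, 0 were called in the average response, with 6 negative and a median of -0.17. IBH1 (AT2G43060), the antagonist with which PRE1 is known to pair, had mock means of 6.25 FPKM in WT and 7.46 FPKM in Atg3bp1-1 and treated means of 10.9 FPKM and 9.99 FPKM, and an average change of 0.56 (SE 0.17, limma adjusted p = 0.0689). AIF3 (AT3G17100) had the highest level of this list, with a mean of 27.2 FPKM. Of the 11 bHLH activators, 7 were tested and 0 were called. BEE3 (AT1G73830), an activator known to be induced by brassinosteroid, fell by 0.70 (SE 0.18, limma adjusted p = 0.0305), under 2-fold. For HBI1 the change was -0.79 (SE 0.24, limma adjusted p = 0.0573). BEE2 (AT4G36540), the most abundant activator with a mean of 14.2 FPKM, had -0.63 (limma adjusted p = 0.0595).

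Among genes of hormone synthesis and signalling, DET2 (AT2G38050), a reductase of brassinosteroid synthesis, rose by 0.70 (SE 0.15, limma adjusted p = 0.0101), under 2-fold. It was also the most abundant gene of its list, with a mean of 18.9 FPKM. None of the 6 tested genes of brassinosteroid signalling, of the 5 PIF factors or of the 5 auxin response factor and TMO genes was called in the average response. The most abundant were BES1 (AT1G19350) with a mean of 32.1 FPKM, PIF5 (AT3G59060) with 24.9 FPKM and TMO6 (AT5G60200) with 11.3 FPKM. MONOPTEROS, which is known to activate PRE3, had 3.25 ± 0.450 FPKM in WT mock, 2.57 ± 0.647 in Atg3bp1-1 mock, 2.44 ± 0.466 in WT hrcC and 2.05 ± 0.324 in Atg3bp1-1 hrcC (SD, n = 3 in each group). The change in the average response was -0.24 (SE 0.15, limma adjusted p = 0.374).

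PAR1 (AT2G42870), named here after its values were seen, is a helix-loop-helix repressor of growth that is known from shade responses and pairs with PRE proteins. Its mock values, like those of PRE1, are given as a description. Its libraries had 2.66, 7.09 and 10.03 FPKM in WT mock, and 25.8, 22.2 and 16.8 FPKM under the label Atg3bp1-1. The mock values were higher in all libraries labelled Atg3bp1-1, as for 9.45% of all tested genes, with a fitted log2 difference of 1.82 (SE 0.29) in mock. After Pst hrcC- it had 17.2, 10.5 and 10.11 FPKM in WT and 20.5, 24.3 and 15.4 FPKM in Atg3bp1-1, and these ranges overlapped. The log2 fold change between the labels was 0.80 there (SE 0.29) and did not pass the test (limma adjusted p = 0.904). After Pst hrcC- none of the 59 pathway genes was called between the labels by limma.

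The interaction, the Atg3bp1-1 response with the WT response subtracted, was called for 0 of the 4 tested members and for 0 of all 17158 tested genes by limma, while 171 genes had an unadjusted p of at most 0.05 with at least 2-fold. For PRE2, PRE4 and PRE6 it was -0.34, -0.13 and -0.20, with intervals from -1.26 to 0.58, -0.71 to 0.44 and -1.09 to 0.68. For PRE5 it was 0.49 (95% interval -0.16 to 1.15). For PRE1, whose mock values chose it, the fitted interaction was 0.75 (SE 0.38).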

How the data were processed

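The deposited table holds FPKM per gene in 12 RNA-seq libraries. The authors trimmed paired-end reads with Trimmomatic, mapped them on TAIR10 by TopHat with 1 place kept per read, and made FPKM per replicate with Cufflinks. FPKM hold no counts, and whole reads could not be recovered from them. Columns were assigned by their names.

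Libraries were rescaled to the same upper quartile of FPKM among genes above 0 in at least 1 library. The genes that passed a mean of 1 FPKM were fitted as 4 groups by limma 3.58.1 (R 4.3.3) on log2 of FPKM plus 1, with a trend of the prior variance. The fit was run on simulated data with independent normal errors. Changes were set there only in genes of a higher level than PRE1, PRE2, PRE4 and PRE5, so that run does not cover these members. FPKM in the text are as deposited, and fold changes come from rescaled values. The paper speaks of independent experiments, to which the labels do not tie the replicate numbers. Sequences came from RefSeq TAIR10.1 and were aligned with MAFFT 7.526. Of the 27371 identifiers, 26703 matched its gene table, with all 100 listed genes among them.

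The members and the gene lists were chosen with earlier results of these data known. Named are the PRE genes, the pathway genes called in a tested comparison (at most 4 per list), the most abundant gene of each list, and for each tested member the 3 genes with the highest correlation. IBH1, HBI1, BEE3, EXPA5, MONOPTEROS, GID1A and PAR1 were named after their values were seen. Alternatives were other scalings, pseudocounts, filters and thresholds, no trend, the compared groups alone, a replicate block, a term for 3 libraries, and each library left out.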

Additional observations from a re-analysis of the deposited data

How the results depend on the processing

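In the response averaged over genotypes, the 1 called member became 2 with a pseudocount of 0.1 and with the adjusted p alone, in both cases by adding PRE4, and 0 to 1 with each library left out in turn. In WT the 0 called members became 1 without rescaling, with quantile normalization, with the replicate number as a block and with an unadjusted p, 2 with a term for the 3 libraries with high factors (PRE3 and PRE1, whose response here uses the mock libraries by which it was picked), and 0 to 1 with each library left out. In Atg3bp1-1 they became 1 with a pseudocount of 0.1. The numbers for the genotypes after Pst hrcC- and for the interaction stayed at 0. The adjusted p of PRE1 in the average response was 0.0281 with the term for the 3 libraries, with a change under 2-fold.

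Genes called lower over the whole table numbered 121 in the average response and 188 with a pseudocount of 0.1. In WT they numbered 55, but 306 with the term for the 3 libraries and 12 with the 2 groups fitted alone, where 273 in place of 492 were higher. In Atg3bp1-1 they numbered 95, but 152 with that term, 171 with the 2 groups fitted alone, and 39 to 52 without Atg3bp1-1 mock replicate 1 or 2 or Atg3bp1-1 hrcC replicate 1 or 3. Between genotypes after Pst hrcC-, the 1 higher and 1 lower gene became 1 to 4 and 0 to 2. RGL3 was not called at a mean filter of 5 FPKM, where it is not tested. The average response and the interaction could not be fitted from 2 groups alone.

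With the group means removed, same-numbered libraries of both genotypes correlated by 0.37, 0.10 and 0.31 in mock. After Pst hrcC- they correlated by 0.04, 0.43 and 0.10. Differently numbered libraries of both genotypes ran from -0.41 to 0.13 in mock and from -0.32 to 0.20 after Pst hrcC-. Same-numbered libraries of mock and treated WT correlated by -0.40, -0.42 and 0.00, and those of Atg3bp1-1 by -0.15, -0.16 and 0.17. Whether the replicate numbers pair the libraries was not tested. Among the members, the block changed no call other than that of PRE3 in WT. FPKM at this level carry no depth, which limits PRE4 and PRE5 most.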
